A study of Mus musculus with 12 samples.

Results

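Markers of the 3 main glial cell types were followed in the striatum of Srf mutant and control mice, 1 hour after an injection of cocaine or saline. The list held 34 genes: 12 of astrocytes, 11 of microglia and 11 of oligodendrocytes and their myelin. A member was measured by every probe set (a group of short array probes against 1 transcript) that the array annotation gives exactly 1 gene symbol. Of the 34 genes, 33 had at least 1 such probe set, and these had 76 of the 22690 probe sets in the table. Ermn, a myelin-associated gene, had no probe set of this kind and was not analysed here.

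Astrocytes take up transmitter glutamate and potassium, couple to each other through gap junctions and contact blood vessels with their endfeet, and raise the intermediate filament protein GFAP when they react to injury or disease. Microglia are the resident macrophages of the brain. They clear debris through lysosomes, secrete complement C1q and depend on signalling through the CSF1 receptor. Oligodendrocytes wrap axons in myelin, including the fibre bundles that run through the striatum, and SRF is a transcription factor that binds CArG boxes in the promoters of cytoskeletal and activity-regulated genes.

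The animals were female littermates of 10 to 15 weeks, caged singly and handled for 5 days. They received an intraperitoneal injection of 25 mg/kg cocaine or of saline and were killed 1 h later. The titles give 4 groups with 3 arrays each, named a biological replicate apiece: control after saline, control after cocaine, mutant after saline and mutant after cocaine. The protocol text of every sample, the saline ones included, names the cocaine injection, so the saline groups rest on the titles and the series design. The description field assigns the arrays to other groups than the titles do, and the titles were used. How Srf was altered, in which cells and by which driver is not stated in the labels. The tissue was striatum with the nucleus accumbens, cut out of sections of 150 µm, and 2 µg of total RNA was labelled for each array. Because the tissue was measured in bulk, fewer cells of a type and less RNA per cell cannot be told apart. The p-values below set differences of group means against the spread between these arrays.

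Values are GCRMA signals on a log2 scale, and a difference of 1 is a 2-fold change. A probe set was tested where its signal exceeded 4 on at least 3 of the 12 arrays. It was called changed where the p of limma's moderated test, adjusted by Benjamini and Hochberg's method across all 11102 tested probe sets, was under 0.05. Of the 76 member probe sets, 66 were tested (31 astrocyte, 14 microglia and 21 oligodendrocyte), and they covered 32 genes. Trem2, a microglial surface receptor, stayed below the floor in both of its probe sets. Signals of different probe sets are not comparable as transcript levels, so each member is compared with itself across arrays.

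The Srf probe set above the floor followed the genotypes given in the titles. Its signals were 7.11, 7.21 and 7.18 in controls after saline, 7.13, 7.20 and 6.97 in controls after cocaine, 5.28, 5.27 and 5.01 in mutants after saline, and 5.33, 5.46 and 5.49 in mutants after cocaine. All 6 mutant arrays were below all 6 control arrays. Its cocaine minus saline difference was -0.06 in controls and 0.24 in mutants, neither called (limma adjusted p = 0.979 and 0.342). Srf was therefore a check of genotype only, and the treatments in the titles were not checked by it. The defining markers of the other cells that the dissection could hold differed between single arrays. The median deviation of 18 endothelial and pericyte genes was -0.49 in control saline replicate 1 and lay between -0.12 and 0.25 on the other arrays. The choroid plexus gene Ttr had a signal of 9.61 in control cocaine replicate 3 and at most 5.90 elsewhere. The genotype and cocaine calls of the members and the class medians for genotype and for cocaine in controls are therefore also given without these arrays.

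The 3 members called in at least 1 comparison were Gfap, Slc4a4 and Cd68, in 5 probe sets. The other 29 tested genes (10 astrocyte, 9 microglia and 10 oligodendrocyte) were called in none of the 7 comparisons. The 250 bases upstream of the annotated start sites of these 3 genes are shown because SRF acts through promoter sequences and these are the members whose signals moved. The sequences are from RefSeq, build GRCm38.p6, written 5′ to 3′ on the gene's strand. Capitals mark matches to TGANTCA, the core of AP-1 sites, which reads the same on both strands. Gfap lies at chr11:102897201-102897450 (minus strand), Cd68 at chr11:69666171-69666420 (minus strand), and the Slc4a4 start sites at chr5:88887010-88887259 and chr5:89027716-89027965 (plus strand).
Gfap: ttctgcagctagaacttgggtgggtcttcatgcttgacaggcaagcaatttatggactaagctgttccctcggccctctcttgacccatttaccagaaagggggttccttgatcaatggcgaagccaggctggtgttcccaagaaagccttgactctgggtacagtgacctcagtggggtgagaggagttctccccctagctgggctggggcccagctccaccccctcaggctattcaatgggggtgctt
Cd68: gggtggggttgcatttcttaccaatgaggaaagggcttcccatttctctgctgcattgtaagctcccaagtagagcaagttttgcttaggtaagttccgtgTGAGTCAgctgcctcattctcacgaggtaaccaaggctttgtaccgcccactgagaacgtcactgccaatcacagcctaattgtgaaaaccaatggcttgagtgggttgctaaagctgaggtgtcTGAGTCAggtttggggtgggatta
Slc4a4, upstream start site: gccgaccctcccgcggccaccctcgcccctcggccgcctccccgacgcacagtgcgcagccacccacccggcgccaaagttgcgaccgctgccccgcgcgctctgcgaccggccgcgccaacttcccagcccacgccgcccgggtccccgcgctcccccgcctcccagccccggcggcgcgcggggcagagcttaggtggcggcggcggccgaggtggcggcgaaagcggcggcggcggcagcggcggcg
Slc4a4, downstream start site: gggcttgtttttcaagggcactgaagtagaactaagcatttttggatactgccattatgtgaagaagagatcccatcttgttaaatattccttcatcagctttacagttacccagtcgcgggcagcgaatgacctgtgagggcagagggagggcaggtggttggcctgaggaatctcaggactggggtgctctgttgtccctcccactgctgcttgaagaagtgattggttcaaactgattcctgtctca
The Cd68 window held 2 matches, starting 149 and 24 bases before the start site, and the Gfap and both Slc4a4 windows held none. The upstream Slc4a4 window had a GC content of 82.0%, against 48.8% in the downstream window, 49.2% in Cd68 and 55.6% in Gfap.

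RefSeq windows were at hand for 26 member genes, which had 30 windows. Of all 32851 windows of that length, 6.75% held TGANTCA, and 3 of the 30 member windows did (10.0%; Cd68, Gja1 and Trem2). The CArG box was found in 1.47% of all windows and in 0 of the 30. The palindrome TTCNNNGAA, the core of STAT sites, was found in 7.02% of all windows and in 4 of the 30 (13.3%; Aldoc, Mag and Slc1a3). A match is a run of letters and not a measured binding site, and none of these counts says whether a factor acts on a gene.

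Gfap, the intermediate filament of astrocytes, gave the largest differences among the members, and they concerned the mutants after saline. Probe set 1426508_at read 4.25, 4.30 and 4.23 in controls after saline and 3.81, 4.17 and 4.19 in controls after cocaine. It read 4.87, 4.71 and 5.58 in mutants after saline, and 3.58, 4.26 and 4.26 in mutants after cocaine. All 3 mutant saline arrays were above the other 9 arrays, and the mutant cocaine arrays overlapped both control groups. The signal was 2.03-fold lower after cocaine than after saline in mutants (log2 difference -1.02, SE 0.217, limma adjusted p = 0.0303). In controls the same comparison gave -0.20 (95% confidence interval -0.67 to 0.27, adjusted p = 0.961). In both genotypes the cocaine arrays of this probe set were below the saline arrays without overlap.

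The other Gfap probe set, 1426509_s_at, read 3.46, 3.30 and 3.08 in controls after saline and 3.28, 3.24 and 3.34 in controls after cocaine. It read 4.20, 4.46 and 4.98 in mutants after saline, and 3.28, 3.79 and 3.78 in mutants after cocaine. It exceeded the floor of 4 on the 3 mutant saline arrays alone. It therefore entered the test only through the group in which it was high, and its calls are no support for Gfap beyond 1426508_at. Its signal was 1.90-fold lower after cocaine than after saline in mutants (log2 difference -0.93, SE 0.184, limma adjusted p = 0.0189). After saline it was 2.4-fold higher in mutants than in controls (log2 difference 1.26, SE 0.184, limma adjusted p = 0.00203), and over both treatments the difference was 0.80 (adjusted p = 0.0018).

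The 2 Gfap probe sets did not give the same calls for genotype. For 1426508_at the mutant minus control difference was 0.80 after saline (SE 0.217, limma adjusted p = 0.076), -0.02 after cocaine (adjusted p = 0.971) and 0.39 over both treatments (adjusted p = 0.144), and none of the 3 was called. Without mutant cocaine replicate 1 the difference after saline was called (adjusted p = 0.0455). The cocaine response of the mutants minus that of the controls was -0.82 (95% interval -1.48 to -0.16, adjusted p = 0.903) in 1426508_at and -0.94 (-1.50 to -0.37, adjusted p = 0.514) in 1426509_s_at, so a difference in the response between genotypes was not called in either.

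Both Gfap calls on cocaine rested on a few arrays and on the filter. Without mutant cocaine replicate 1, the lowest of its group in both probe sets, the differences were -0.80 (limma adjusted p = 0.14) and -0.76 (adjusted p = 0.101). The 1426508_at call was also lost without mutant saline replicate 1 (-1.11, adjusted p = 0.0517) and replicate 3 (-0.76, adjusted p = 0.0873). Without any filter on level the adjusted p values were 0.149 and 0.105, and with only the groups compared in the fit 0.131 and 0.0994. Without control saline replicate 1 or control cocaine replicate 3 the calls held, with adjusted p values of 0.0395 and 0.0453 in 1426508_at. The genotype calls of 1426509_s_at held as well (adjusted p 0.00251 to 0.0054), but without any 1 of the mutant saline arrays that probe set was no longer tested.

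Slc4a4, the electrogenic sodium bicarbonate cotransporter that regulates pH in astrocytes, was higher in mutants. Probe set 1452071_at read 7.15, 7.63 and 7.69 in controls after saline, 7.71, 7.57 and 7.84 in controls after cocaine, 8.25, 7.95 and 7.82 in mutants after saline, and 8.28, 8.09 and 8.15 in mutants after cocaine. Mutants were above controls within each treatment without overlap, and across treatments mutant saline replicate 3 fell just below control cocaine replicate 3. Over both treatments the signal was 1.40-fold higher in mutants (log2 difference 0.49, SE 0.103, limma adjusted p = 0.00929). The adjusted p was 0.0861 after saline alone and 0.103 after cocaine alone, with differences of 0.52 and 0.46. Without control saline replicate 1 the difference after saline was 0.34 (adjusted p = 0.195), and the one after cocaine was called (adjusted p = 0.0358). The difference after cocaine was also called with only the groups compared in the fit (adjusted p = 0.0308) and with array weights (0.0454), and the one after saline with an intensity trend (0.045). The call over both treatments was kept when each of the 12 arrays was left out in turn (adjusted p 0.0088 to 0.0278). Without control saline replicate 1, the lowest array, the difference was 0.40 (adjusted p = 0.0108), and without control cocaine replicate 3 it was 0.52 (adjusted p = 0.0145).

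A further Slc4a4 probe set, 1421225_a_at, read 6.39, 6.93 and 6.65 in controls after saline, 6.77, 6.43 and 7.02 in controls after cocaine, 6.99, 7.04 and 6.92 in mutants after saline, and 7.23, 7.09 and 7.16 in mutants after cocaine. Control saline replicate 2 and control cocaine replicate 3 reached the range of the mutants. The difference over both treatments was 0.37 (SE 0.104, limma adjusted p = 0.0405). When each of the 12 arrays was left out in turn, this call held only without control saline replicate 2 and without control cocaine replicate 3 (0.44, adjusted p = 0.018). It was lost without each of the other 10, control saline replicate 1 among them (0.31, adjusted p = 0.073), and the adjusted p was highest without mutant cocaine replicate 1 (0.0883). Without the filter on level it was lost as well (adjusted p = 0.123).

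Probe set 1426432_a_at read 5.91, 6.65 and 6.32, then 6.12, 6.14 and 6.53 in the controls after saline and cocaine, and 6.74, 6.49 and 6.71, then 6.78, 6.47 and 6.50 in the mutants. The genotypes overlapped, and the difference of 0.34 (95% interval 0.08 to 0.60, limma adjusted p = 0.0988) was not called. The fourth Slc4a4 probe set was below the floor on every array, between 2.24 and 2.28. The cocaine response of Slc4a4 was not called in either genotype in any probe set.

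Cd68, a lysosomal membrane glycoprotein of microglia and macrophages, was the only microglial member called. It read 5.08, 5.04 and 5.12 in controls after saline, 5.23, 4.72 and 5.29 in controls after cocaine, 5.40, 5.91 and 5.94 in mutants after saline, and 5.92, 5.87 and 5.76 in mutants after cocaine. The lowest mutant array, mutant saline replicate 1, was above the highest control array, so the 6 mutant and the 6 control arrays did not overlap. Cd68 was the single member probe set of 66 with this property (1.52%), against 5.17% of all tested probe sets, 2.05% with the mutants above. Over both treatments the signal was 1.65-fold higher in mutants (log2 difference 0.72, SE 0.112, limma adjusted p = 0.00124). The cocaine response was -0.00 in controls (95% interval -0.35 to 0.34) and 0.10 in mutants (-0.24 to 0.44).

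**Figure D1:**
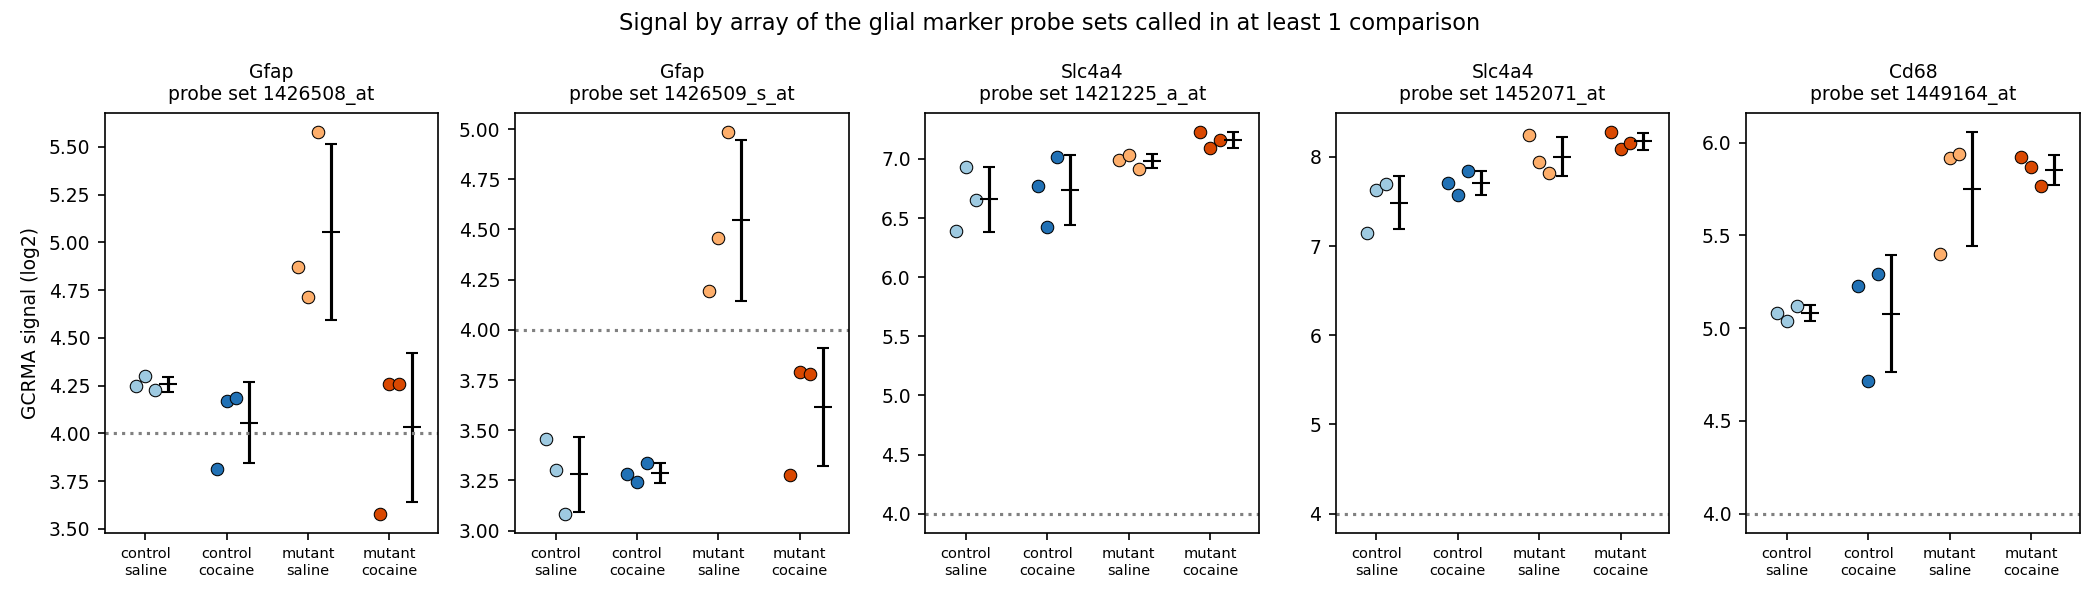
GCRMA signal (log2, vertical axis, separate scale in each panel) of the 5 called probe sets on the 12 arrays, by group. Points are arrays, the bar beside them is the mean with SD (n = 3), and the dotted line is the floor of 4. In both Gfap panels the 3 mutant saline arrays stand highest, and in the Cd68 panel all 6 mutant arrays stand above all 6 control arrays.

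The Cd68 call over both treatments was kept without each of the 12 arrays (limma adjusted p 0.00032 to 0.00476). Without control saline replicate 1 the difference was 0.72 (adjusted p = 0.00311), and without control cocaine replicate 3 it was 0.78 (adjusted p = 0.00159). Within treatments the difference was 0.67 after saline (SE 0.158, adjusted p = 0.0403) and 0.78 after cocaine (SE 0.158, adjusted p = 0.0139). The saline call held only without mutant saline replicate 1, control cocaine replicate 2 or control cocaine replicate 3. It was lost without each of the other 9 arrays, with an adjusted p of 0.0798 without control saline replicate 1 and the highest, 0.144, without mutant saline replicate 3. It was also lost without the filter on level (adjusted p = 0.142) and with only the groups compared in the fit (0.0844). The cocaine call was lost without mutant cocaine replicate 1 (0.74, adjusted p = 0.0637) and without the filter (adjusted p = 0.067). It held without control saline replicate 1 (adjusted p = 0.0185) and without control cocaine replicate 3 (0.0188).

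The remaining microglial members were not called in any comparison. Csf1r, the receptor that microglia need to survive, had the microglial probe set with the highest signal, 1419872_at. It read 8.48, 8.29 and 8.29 in controls after saline, 8.35, 8.52 and 8.63 in controls after cocaine, 8.20, 8.26 and 8.34 in mutants after saline, and 8.34, 8.39 and 8.40 in mutants after cocaine. The 4 groups lay close together, with a genotype difference over both treatments of -0.11 (95% interval -0.24 to 0.03, limma adjusted p = 0.339). The other 2 Csf1r probe sets gave -0.19 and -0.07.

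For the complement genes, whose products form the C1q molecule that tags synapses and debris, the genotype differences over both treatments were -0.03 for C1qa, -0.14 to 0.00 over the 3 probe sets of C1qb, and -0.17 for C1qc. Cx3cr1, the fractalkine receptor, gave -0.08 in the probe set above the floor. Tyrobp, the signalling adaptor that partners with TREM2, gave 0.03, and Aif1, which encodes the calcium-binding protein IBA1, gave 0.01. Ctss, a lysosomal protease, gave -0.10, and Laptm5, a lysosomal membrane protein, gave -0.08. Over the uncalled microglial probe sets the genotype differences lay between -0.19 and 0.03, and their 95% intervals reached from -0.37 to 0.19. After cocaine, Cd68 was the 1 gene of 11 that was higher in mutants than in controls in its brightest probe set, and the other 10 were lower. Of the 10 that were lower none was called, and Trem2 among them was below the floor and not tested. The median of the 11 was -0.13, against -0.02 over all tested probe sets. Without control cocaine replicate 3 the median of the 11 was -0.07.

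In mutants, 5 of the 14 tested microglial probe sets (35.7%) had cocaine arrays that did not overlap the saline arrays, against 16.1% of all tested probe sets. C1qa, C1qb (1417063_at), Cx3cr1 and Tyrobp were lower after cocaine and Csf1r (1419872_at) was higher. The differences of C1qa and of C1qb 1417063_at were -0.26 and -0.33, both with a limma adjusted p of 0.319. Over the 3 C1qb probe sets the difference in mutants ranged from -0.33 to -0.11. Over the 3 Csf1r probe sets it ranged from -0.13 to 0.11, so they did not share a direction. In controls 1 of the 14 did not overlap (7.14%, against 11.2% of all tested probe sets): Tyrobp, which was higher after cocaine by 0.19. Its signals were 6.24, 6.13 and 6.16 in controls after saline, 6.38, 6.29 and 6.41 in controls after cocaine, 6.31, 6.33 and 6.43 in mutants after saline, and 6.17, 6.30 and 6.26 in mutants after cocaine. The arrays thus separated in opposite directions in the 2 genotypes, but the difference between the responses, -0.30 (95% interval -0.53 to -0.07), had an adjusted p of 0.869. For C1qb 1417063_at the same difference was -0.50 (adjusted p = 0.869), the lowest among the tested microglial probe sets.

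Oligodendrocyte genes gave no call in any of the 7 comparisons, in 21 tested probe sets of 10 genes. Mbp, myelin basic protein, had the probe set with the highest signal, 1433532_a_at. It read 12.01, 12.23 and 12.26 in controls after saline, 12.26, 12.26 and 12.20 in controls after cocaine, 12.28, 12.39 and 12.26 in mutants after saline, and 12.18, 12.16 and 12.35 in mutants after cocaine. The genotypes overlapped, with a difference of 0.07 (95% interval -0.07 to 0.20, limma adjusted p = 0.577). All 7 tested Mbp probe sets had a difference between 0.07 and 0.12, none of them called. The highest signal of any probe set on any array was 13.1.

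The other myelin genes gave genotype differences over both treatments of 0.15 for Mog (a glycoprotein of the outer myelin surface), 0.15 for Mag (an adhesion molecule facing the axon), 0.16 to 0.22 for the 3 probe sets of Mobp, and -0.03 to 0.11 for those of Cnp (a phosphodiesterase of non-compact myelin). Cldn11, a tight junction protein of myelin, gave 0.07, and Ugt8a, an enzyme of galactolipid synthesis, gave 0.14 and 0.37 in its 2 probe sets. The 0.37 of Ugt8a 1419064_a_at was the largest in the class (95% interval 0.06 to 0.68, limma adjusted p = 0.126) and came from signals of 3.88 to 5.06, near the floor. The transcription factors of the lineage gave -0.09 (Sox10), 0.09 (Olig1) and 0.03 (Olig2). In their brightest probe sets 8 of 10 genes were higher in mutants, with a median of 0.08 against -0.01 over all tested probe sets.

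Mag had the largest cocaine difference of the class within either genotype. It read 7.15, 7.57 and 7.45 in controls after saline, 7.79, 7.60 and 7.87 in controls after cocaine, 7.80, 8.08 and 7.58 in mutants after saline, and 7.59, 7.68 and 7.60 in mutants after cocaine. In controls the cocaine arrays were above the saline arrays by 0.36 (95% interval 0.08 to 0.65, limma adjusted p = 0.611), while in mutants the groups overlapped and the difference was -0.20 (adjusted p = 0.688). The difference between these responses was -0.56 (-0.97 to -0.16, adjusted p = 0.795). Control saline replicate 1 was the lowest array for Mag, and also for Mbp, Mog, Mobp, Ugt8a and Olig2.

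The uncalled astrocyte members covered glutamate uptake, gap junctions, water transport and metabolism. Clu, a secreted chaperone, had the probe set with the highest signal, 1437689_x_at. It read 11.74, 11.74 and 11.73 in controls after saline, 11.69, 11.54 and 11.71 in controls after cocaine, 11.69, 11.73 and 11.62 in mutants after saline, and 11.93, 11.74 and 11.75 in mutants after cocaine. After cocaine the arrays of this probe set were lower in controls and higher in mutants without overlap, with small differences of -0.09 and 0.13. The difference between these responses (0.22, 95% interval -0.02 to 0.46) was not called. The other Clu probe sets were higher after cocaine in controls, by 0.10 (1418626_a_at), 0.05 (1437458_x_at) and 0.06 (1454849_x_at), the last without overlap. In mutants they gave -0.06, 0.10 and 0.03, in the same order. Over both treatments the genotype differences of the 4 Clu probe sets lay between -0.02 and 0.11.

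The glutamate transporters gave genotype differences over both treatments of -0.07 for Slc1a2 (GLT-1) and -0.05 to 0.07 over the 3 probe sets of Slc1a3 (GLAST). The probe set of Slc1a2 read between 3.71 and 4.31 on all arrays, next to the floor. Glul, glutamine synthetase, gave 0.10 and 0.15. Gja1, connexin 43, gave 0.01 to 0.14 over 6 probe sets, Aldoc (aldolase C) -0.09 and -0.03, and Aldh1l1 (a folate enzyme) 0.01 in the probe set above the floor. Aqp4, the water channel of the endfeet, gave -0.24 and -0.18, and S100b, a calcium-binding protein, gave -0.16 and -0.09. Vim, an intermediate filament that assembles with GFAP, gave -0.13 to -0.03 over 3 probe sets, with none called, in the same arrays in which Gfap was called. Over the uncalled astrocyte probe sets the differences lay between -0.24 and 0.39 and their 95% intervals reached from -0.48 to 0.72, both upper ends being those of Gfap 1426508_at.

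S100b 1419383_at read 6.64, 6.64 and 6.73 in controls after saline, 6.74, 6.98 and 6.76 in controls after cocaine, 6.58, 6.57 and 6.47 in mutants after saline, and 6.65, 6.63 and 6.64 in mutants after cocaine. In both genotypes the cocaine arrays were above the saline arrays, by 0.15 and 0.10, neither called (limma adjusted p = 0.859 and 0.778). The other S100b probe set gave -0.05 in controls and 0.21 in mutants. Within each treatment the mutant arrays of 1419383_at were below the control arrays without overlap. Its genotype difference over both treatments, -0.16 (limma adjusted p = 0.106), was not called. Aqp4 1425382_a_at was higher after cocaine by 0.32 in controls (95% interval -0.01 to 0.66, adjusted p = 0.802) and by 0.19 in mutants (-0.15 to 0.52, adjusted p = 0.786). The brighter Aqp4 probe set, 1434449_at, gave 0.18 in controls and 0.04 in mutants, neither called.

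**Figure D2:**
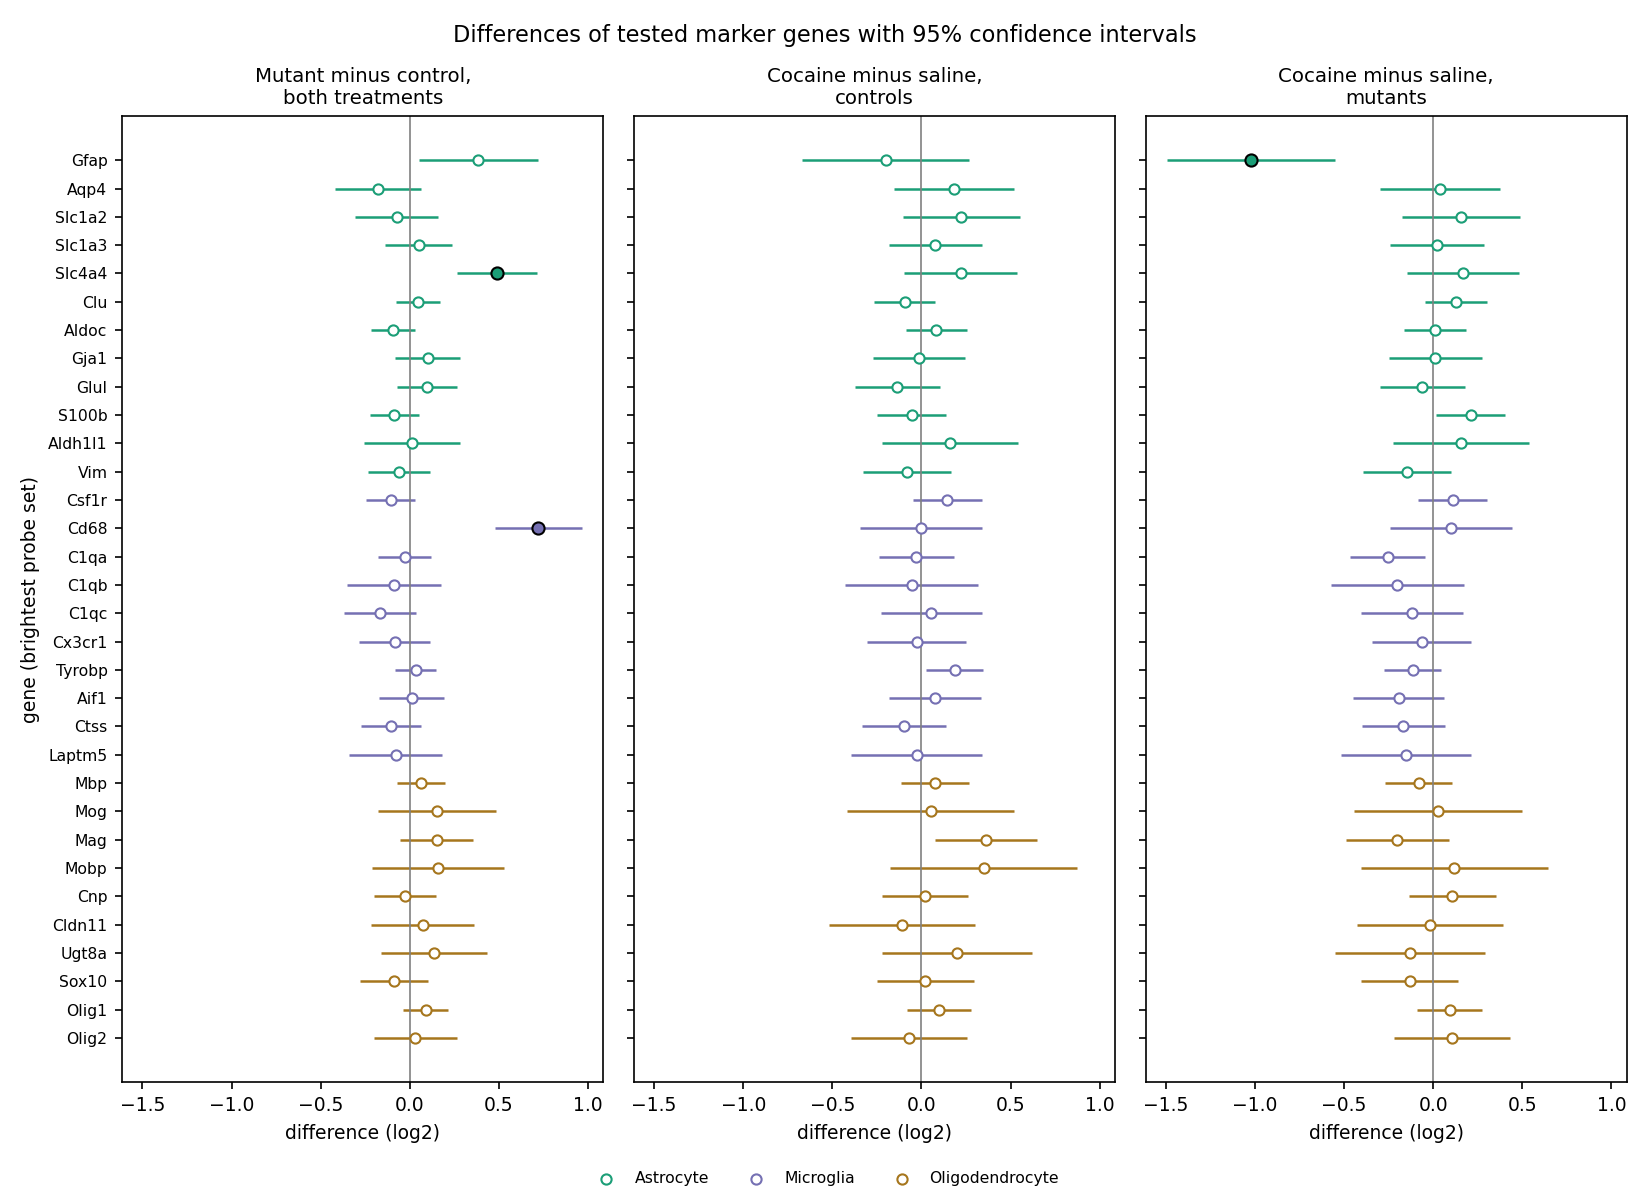
Log2 differences of the 32 tested genes in their brightest probe set, with 95% confidence intervals from limma (3 arrays a group), for mutant minus control over both treatments and for cocaine minus saline in each genotype. Filled points are called (adjusted p under 0.05); Slc4a4 and Cd68 are called for genotype and Gfap for cocaine in mutants, and the intervals of most other genes cross 0.

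Counted over the list, the calls were few. For genotype over both treatments 4 of 66 member probe sets were called (6.06%, all higher in mutants), against 9.47% of all tested probe sets, or 4.41% called higher. After saline it was 2 (3.03%, against 2.98%) and after cocaine 1 (1.52%, against 4.19%). For cocaine, 2 were called in mutants (3.03%, against 1.92%), both of Gfap and both lower (against 0.162% of all called lower), 0 in controls (against 0.45%) and 0 over both genotypes (against 2.31%). The difference in the cocaine response gave 0 (against 0.0721%). Gfap 1426509_s_at is among the counts for saline, for both treatments and for cocaine in mutants. At an unadjusted p under 0.05 limma gave 10 member probe sets for genotype over both treatments (15.2%, against 23.4% of all), 9 after saline (13.6%, against 15.6%), 4 after cocaine (6.06%, against 17.2%), 5 for cocaine in mutants (7.58%, against 10.7%), 2 for cocaine in controls (3.03%, against 6.34%), 4 for cocaine over both genotypes (6.06%, against 11.5%) and 6 for the difference in response (9.09%, against 4.98%). Cocaine and saline arrays did not overlap in 10 member probe sets in controls (15.2%, against 11.2%) and in 12 in mutants (18.2%, against 16.1%). Mutant and control arrays did not overlap in 13 after saline (19.7%, against 18.9%) and in 9 after cocaine (13.6%, against 24.6%).

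To summarise each class by array, the median deviation of its genes from their own mean over the 12 arrays was taken, in the brightest probe set of each gene. For the 12 astrocyte genes it was -0.15, 0.01 and 0.04 in controls after saline, 0.01, -0.05 and -0.01 in controls after cocaine, -0.05, 0.10 and -0.09 in mutants after saline, and 0.01, -0.09 and 0.06 in mutants after cocaine. For the 11 microglial genes it was 0.12, -0.09 and -0.08, then -0.02, -0.03 and 0.15 in the controls, and -0.01, 0.10 and 0.10, then -0.11, 0.01 and -0.02 in the mutants. For the 10 oligodendrocyte genes it was -0.23, -0.02 and 0.00, then -0.05, -0.04 and 0.19 in the controls, and -0.00, 0.16 and -0.15, then 0.04, -0.08 and 0.11 in the mutants. In all 3 classes the ranges of the 4 groups overlapped each other.

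**Figure D3:**
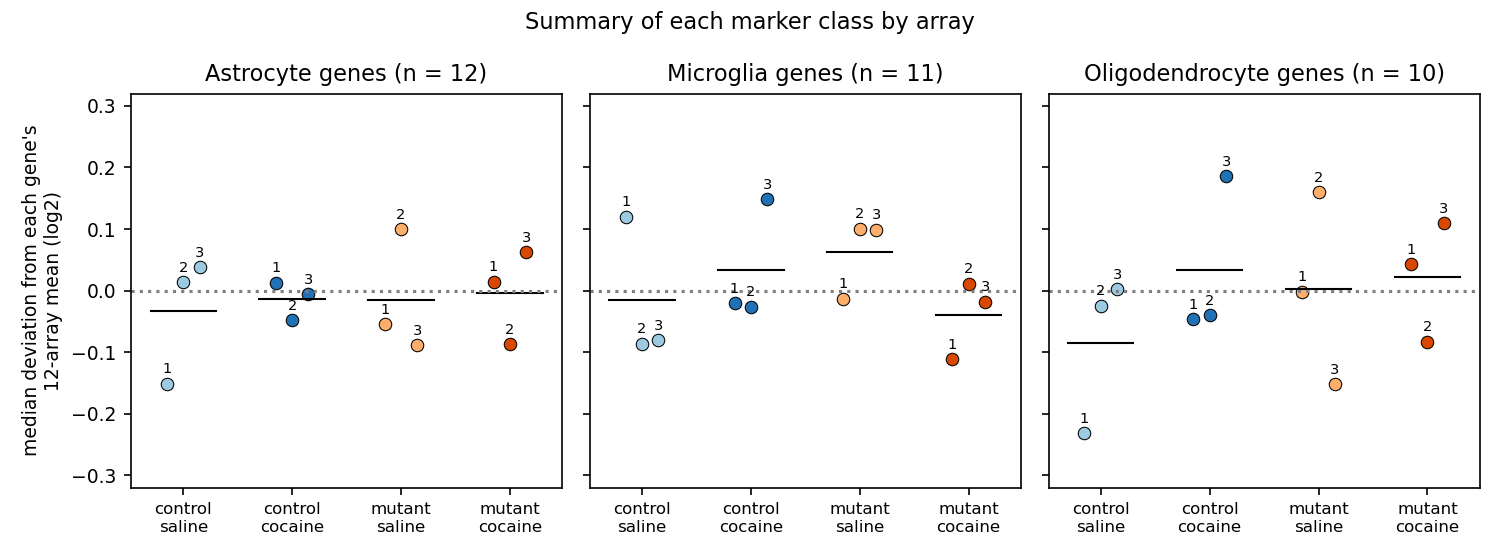
Median deviation (log2) of the genes of each class from their own 12-array means, 1 point for each array with its replicate number, by group; the bars are group means (n = 3). The oligodendrocyte panel has the widest spread within groups, from -0.23 to 0.00 in controls after saline and from -0.15 to 0.16 in mutants after saline.

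With no array left out, class medians for genotype over both treatments and for cocaine in each genotype were mostly smaller than their within-group SD. The exception was the microglial median for cocaine in mutants. For genotype over both treatments the medians were 0.03 (astrocyte), -0.08 (microglia) and 0.08 (oligodendrocyte), with within-group SDs of the array summaries of 0.0828, 0.0894 and 0.130. For cocaine they were 0.03, -0.00 and 0.06 in controls and 0.03, -0.12 and 0.00 in mutants, in the same order. The microglial median in mutants stayed between -0.14 and -0.08 when each array was left out in turn. The microglial medians for genotype after cocaine (-0.13) and for the difference in cocaine response (-0.13) also exceeded the SD of 0.0894. These SDs are of single arrays, while the medians compare means of several arrays. No test was run on the class medians. The medians for cocaine in controls became -0.00, 0.09 and 0.02 without control saline replicate 1, and 0.05, -0.04 and 0.03 without control cocaine replicate 3, so the astrocyte and microglial medians had no stable direction there. Without control saline replicate 1 the genotype medians were -0.01, -0.01 and 0.03, so the direction of the astrocyte median turned and the microglial and oligodendrocyte medians shrank by more than 1.5 times. Without control cocaine replicate 3 they were 0.02, -0.02 and 0.14.

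The oligodendrocyte members varied from array to array within the groups. In mutant saline replicate 2 all 10 genes were above their own means, and in mutant saline replicate 3, of the same group, 1 of 10 was. Control cocaine replicate 3 had 8 of 10 above and control saline replicate 1 had 2 of 10. A separate list of 14 oligodendrocyte genes gave 13 above their means in mutant saline replicate 2 and 12 in control cocaine replicate 3, but only 5, 2 and 2 in the 3 control saline arrays. In that list the array medians of the control saline group (-0.05, -0.08 and -0.05) were all below those of the other 9 arrays (-0.04 to 0.17), whereas in the members the control saline group overlapped the others. The median residual SD within groups was 0.196 for oligodendrocyte genes, 0.159 for astrocyte genes and 0.156 for microglial genes, against 0.133 over all tested probe sets. It was highest for Mobp (0.362), whose control saline replicate 1 read 9.17 while the other 11 arrays read 9.92 to 10.50.

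**Figure D4:**
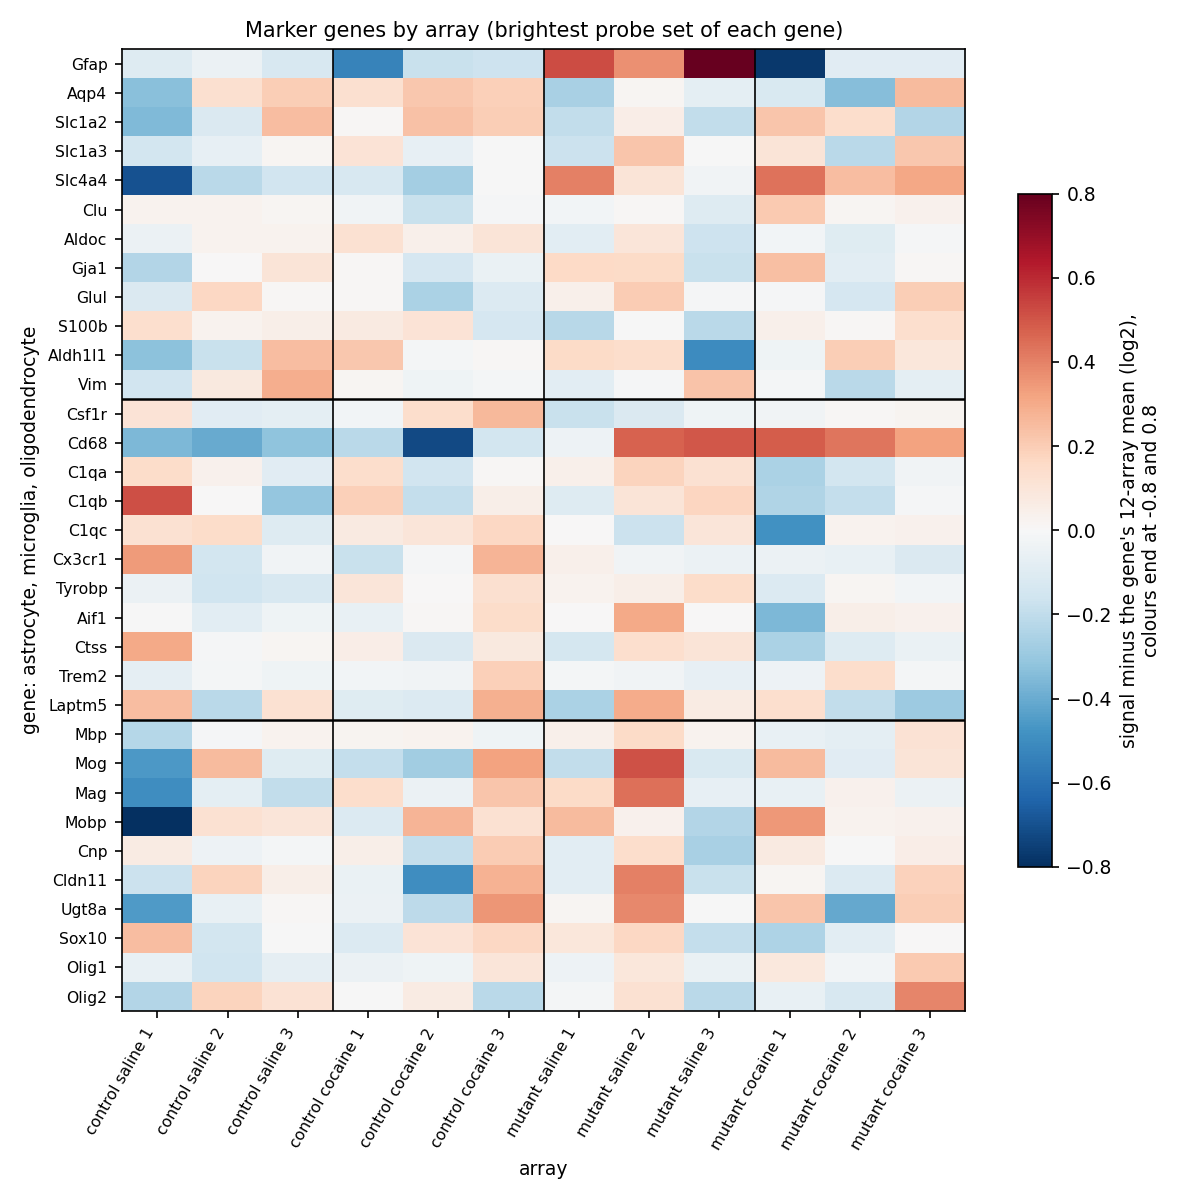
Signal of each of the 33 measured genes (rows, brightest probe set) on each of the 12 arrays (columns), as the log2 deviation from that gene's 12-array mean; the colour scale ends at -0.8 and 0.8. Gfap stands out in mutants after saline and Cd68 in 5 of the 6 mutant arrays, and the oligodendrocyte genes vary by array, with control saline replicate 1 low in Mobp, Mag, Mog and Ugt8a.

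Other genes of the same cell types were read from lists kept apart from the members, in their brightest probe set, for genotype over both treatments. Of 19 further astrocyte genes, all tested, 1 was called: Id3, an inhibitor of differentiation, was lower in mutants (-0.41, SE 0.119, limma adjusted p = 0.0478). Of 14 genes of reactive astrocytes 12 were below the floor, among them Lcn2, Serpina3n and Timp1, and the 2 tested, Stat3 and Hspb1, were not called (0.27 and -0.27). Of 17 further microglial and macrophage genes 10 were tested, and Ly86, which pairs with a relative of the Toll-like receptors, was lower in mutants (-0.36, SE 0.0846, adjusted p = 0.0177), opposite to Cd68. The macrophage genes Lyz2, Mrc1 and Cd74 were below the floor. Of 14 further oligodendrocyte genes 12 were tested and 0 were called. Of 7 genes listed for oligodendrocyte precursors 5 were tested. Ptgds, a prostaglandin D synthase that mature oligodendrocytes and meninges also make, was higher in mutants (0.63, SE 0.109, adjusted p = 0.0029), and the proteoglycan Vcan was lower (-0.54, SE 0.143, adjusted p = 0.0313).

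Markers of other cells moved with genotype too. Of 13 striatal neuron genes 5 were higher in mutants and 2 lower, with the largest changes in Gad2 (0.60, limma adjusted p = 0.00762), Foxp2 (-0.42, adjusted p = 0.0202), Pde1b (0.39, adjusted p = 0.00113) and Gad1 (0.35, adjusted p = 0.00124). The summed level of this list was 13.9 to 14.1 in control arrays and 14.1 to 14.2 in mutant arrays on the log2 scale. Of 11 endothelial and pericyte genes, 4 cortical or septal neuron genes and 3 genes of meninges, choroid plexus or ependyma that were tested, 0 were called, and all 4 haemoglobin and red cell genes were below the floor. The part of these neuronal differences in the glial results was not tested. Of 11 tested genes of cholesterol synthesis, a product that astrocytes supply and myelin needs in bulk, 7 were higher in mutants, led by Dhcr7 (0.73, adjusted p = 0.000164), Idi1 (0.48, adjusted p = 0.000115), Sqle (0.47, adjusted p = 0.00315) and Cyp51 (0.38, adjusted p = 0.00613). Idi1 was also called for cocaine over both genotypes (0.37, adjusted p = 0.00153).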

How the data were processed

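The authors deposited log2 signals, which GCRMA in R 2.4.1 had produced according to the submitters' processing notes. Neither the log base nor GCRMA's settings are stated in those notes, and base 2 was taken from the range of the values. GCRMA compresses signals near background, so differences near the floor of 4 depend on its background correction. Array medians lay between 3.75 and 3.78, so an overall shift of an array would not show.

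The 64 control probe sets were left out. Groups came from the titles. A linear model with 4 groups was fitted to the 11102 probe sets over the floor on at least 3 arrays with limma 3.58.1 in R 4.3.3, with Benjamini-Hochberg adjustment over all of them for each comparison, and was tested on simulated data. No block was used. The number of arrays limits the precision.

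The members and gene lists were chosen with earlier results of these data known. Values by array are printed for called probe sets, for the uncalled probe set with the highest signal in each class and for members whose probe sets disagree. From other lists, called genes are named, at most the 4 largest. Mag, Tyrobp and S100b were added after their values were seen. Alternatives were other filters, array weights, an intensity trend, renewed quantile normalisation, median centring, fits of only the groups compared, a replicate block and leaving out each array.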

Additional observations from a re-analysis of the deposited data

How the results depend on the processing

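The called members kept their direction in each alternative that gave them a value. With a floor of 5 neither Gfap probe set was tested, and without any 1 of the mutant saline arrays 1426509_s_at was not. The count of member probe sets called for cocaine in mutants went from 2 to 0 without a filter, with a floor of 5, and with only the groups compared. For cocaine over both genotypes it went from 0 to 1 with the replicate block and with an intensity trend. For genotype after cocaine it went from 1 to 0 without a filter, and to 2 with only the groups compared and with array weights. For genotype after saline it went from 2 to 1 without a filter, with a floor of 5, and with only the groups compared, and to 3 with an intensity trend. Where the floor of 5 removed a Gfap probe set, its call was lost because the probe set itself was no longer tested. Elsewhere the cause was not tested. The astrocyte median for genotype after saline, -0.01, was 0.087 as a mean over genes. Leaving out each array in turn gave 0 to 2 calls for cocaine in mutants, 0 to 1 for cocaine over both genotypes, 0 to 2 for genotype after saline and after cocaine, and 2 to 5 over both treatments. Class medians ranged as follows: astrocyte, -0.13 to 0.094 for the difference in cocaine response and -0.071 to 0.10 for genotype after saline; microglia, -0.035 to 0.089 for cocaine in controls, -0.21 to -0.026 for the difference in response and -0.033 to 0.081 for genotype after saline.

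The labels state no pairing of arrays by replicate number, and none was seen in the signals, though so few arrays cannot exclude it. Same-numbered arrays of different groups had correlated deviations of -0.14 to 0.12 (median -0.08, 18 pairs), against -0.10 to 0.16 for different numbers, and 2 of 12 arrays were closest to an array of their own number. With the replicate block Gfap 1426508_at was called for cocaine over both genotypes (limma adjusted p = 0.0342) and for genotype after saline (adjusted p = 0.0458), while Cd68 after saline (adjusted p = 0.0632) and Slc4a4 1421225_a_at over both treatments (adjusted p = 0.0677) were not called.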
